A study of Homo sapiens with 8 samples.

Results

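Hemidesmosomes and laminin-332 hold the basal side of an epithelial cell to the basement membrane. The 8 genes described here were chosen by name for that role: LAMA3 and LAMB3 (chains of laminin-332), COL17A1 (collagen XVII), ITGA6, ITGB4 and ITGA3 (integrin subunits), and DST and PLEC (plakin linkers). They are 8 of the 33791 genes for which transcript counts could be summed, and all 8 passed the filter on low counts that left 14653 genes for testing. RNA-seq had been performed on PNT2, an immortalized human prostate epithelial line, with 2 libraries (replicates A and B) in each of 4 groups: unmodified WT cells and lines whose labels read ERF KD, CIC KO or CIC-ERF codeletion. Per the study's methods, ERF was silenced with short hairpin RNAs under puromycin selection, CIC was disrupted with guide RNAs and Cas9 under blasticidin selection, and the codeletion line combined the first ERF hairpin with a CIC guide. The sources used here do not say whether these lines are single clones, nor which hairpin or guide stands behind a replicate letter, so that p-values measure only the spread between these libraries.

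ERF and CIC are transcriptional repressors, and the study asked whether their combined loss changes prostate epithelial cells more than either loss alone. ERF mRNA was read first as a check of the labels. It was at 55.8 and 55.9 CPM (counts scaled to the size of the library) in WT, 81.2 and 77.8 CPM in the ERF KD-labelled libraries, 18.8 and 11.7 CPM in the CIC KO-labelled ones, and 11.6 and 10.4 CPM in the codeletion. The transcript that the hairpins target was thus not lower than in WT under the ERF KD label, but was under the CIC KO label. File names for these 4 libraries give the reverse assignment. CIC mRNA, which Cas9 need not lower, was at 128 and 129 CPM in WT, 109 in both ERF KD-labelled libraries, 132 and 131 in the CIC KO-labelled ones, and 90.9 and 66.4 in the codeletion. The labels were kept, and every direction below that involves a single-loss group holds for the libraries as labelled.

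In a hemidesmosome, the integrin made of the alpha 6 and beta 4 subunits binds laminin-332 outside the cell, with collagen XVII beside it, while plectin and the epithelial form of dystonin link both to keratin filaments inside. Laminin-332 is secreted as a trimer that includes the alpha 3 and beta 3 chains, and integrin alpha 3, paired with beta 1, also binds it. In the prostate these proteins are features of basal cells, which rest on the basement membrane.

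All 4 groups expressed the 8 genes. On the scale that corrects for transcript length (TPM), the order in WT was ITGA3 (204 and 206 TPM in replicates A and B), ITGB4 (89.6 and 86.8), PLEC (94.3 and 72.7), LAMA3 (46.6 and 107), ITGA6 (66.3 and 85.3), LAMB3 (45.2 and 99.8), DST (63.7 and 43.0) and COL17A1 (24.0 and 45.4). Only ITGA3 stood apart from its neighbour. For each of the other neighbouring pairs the WT libraries overlapped. In the ERF KD-labelled libraries the laminin chains and collagen XVII were the lowest of the 8, with LAMA3 at 5.85 and 11 TPM, LAMB3 at 9.92 and 13.7 TPM and COL17A1 at 1.22 and 3.41 TPM.

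**Figure D1:**
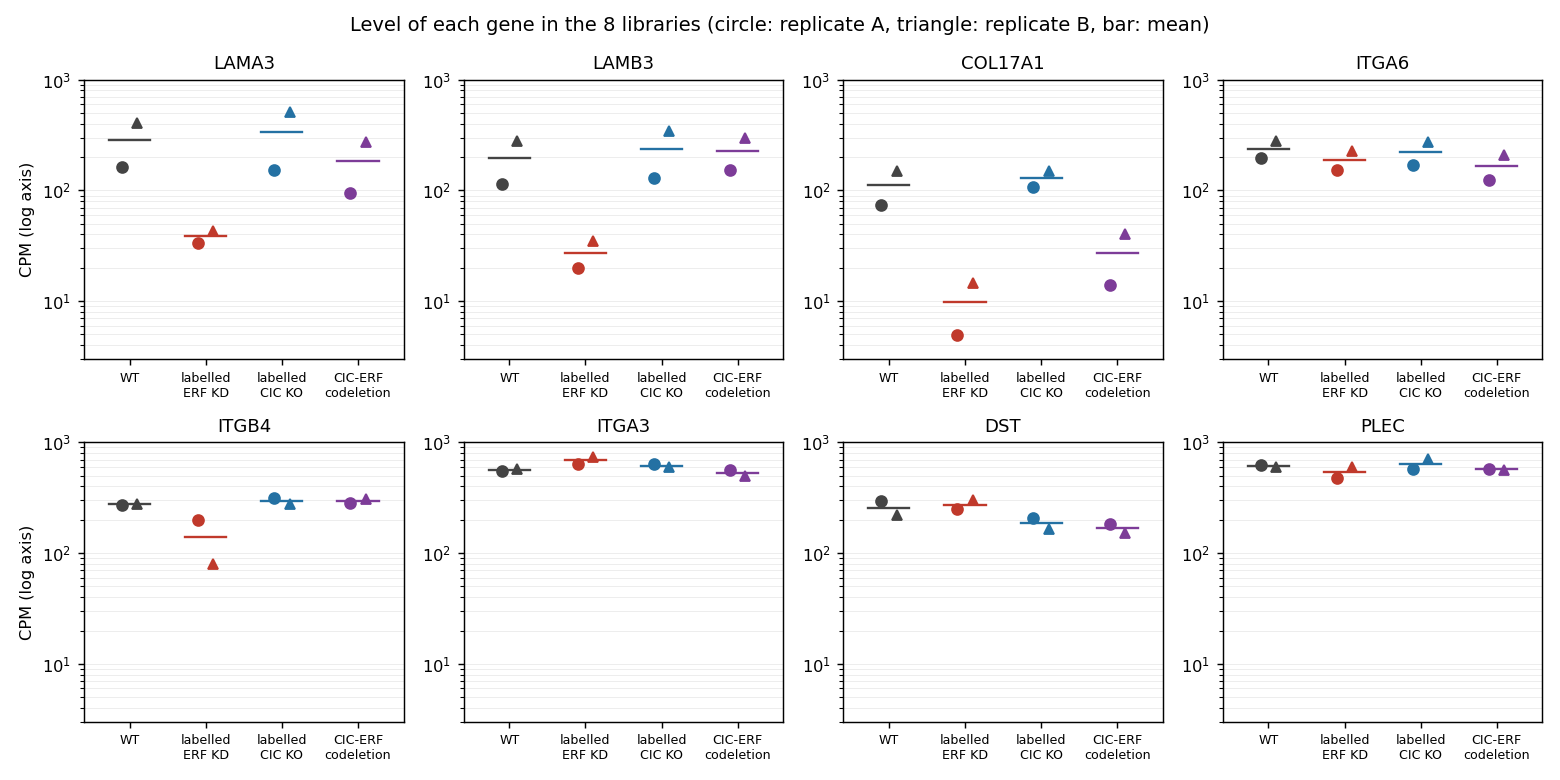
CPM of the 8 genes (log axis) in each library of the 4 groups, with a circle for replicate A, a triangle for replicate B and a bar for their mean. LAMA3, LAMB3 and COL17A1 lie below WT in both ERF KD-labelled libraries, COL17A1 also in the codeletion, while PLEC stays between 476 and 713 CPM in every library.

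The promoters of LAMA3, LAMB3 and COL17A1 are shown because these were the members that fell past the test's threshold. Each runs from 250 bases before to 50 bases after a RefSeq start (GRCh38.p14), 5′ to 3′ on the gene's strand. The LAMA3 window, at chr18:23872770-23873069 on the plus strand, holds the first bases of the short transcript LAMA3-201. Its RefSeq start lies 180 bases downstream of the start of LAMA3-201. The LAMB3 window, at chr1:209652376-209652675 on the minus strand, has its start 41 bases from that of LAMB3-201, and the COL17A1 window, at chr10:104085831-104086130 on the minus strand, has its start 77 bases from that of COL17A1-201. Capitals mark GGAA, the core bound by ETS factors such as ERF, on either strand (read as GGAA or TTCC), and TGANTCA, the site of AP-1 factors.
LAMA3: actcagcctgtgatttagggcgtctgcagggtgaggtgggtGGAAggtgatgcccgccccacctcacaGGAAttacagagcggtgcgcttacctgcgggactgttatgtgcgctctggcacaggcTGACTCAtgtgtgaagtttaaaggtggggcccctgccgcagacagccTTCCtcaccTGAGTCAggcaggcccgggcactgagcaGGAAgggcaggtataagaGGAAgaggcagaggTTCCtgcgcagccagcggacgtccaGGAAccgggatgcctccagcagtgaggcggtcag
LAMB3: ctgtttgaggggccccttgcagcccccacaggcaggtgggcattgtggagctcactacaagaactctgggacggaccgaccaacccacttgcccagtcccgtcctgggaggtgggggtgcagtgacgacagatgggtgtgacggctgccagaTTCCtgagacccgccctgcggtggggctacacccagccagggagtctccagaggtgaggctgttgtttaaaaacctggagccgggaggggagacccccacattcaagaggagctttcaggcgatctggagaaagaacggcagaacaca
COL17A1: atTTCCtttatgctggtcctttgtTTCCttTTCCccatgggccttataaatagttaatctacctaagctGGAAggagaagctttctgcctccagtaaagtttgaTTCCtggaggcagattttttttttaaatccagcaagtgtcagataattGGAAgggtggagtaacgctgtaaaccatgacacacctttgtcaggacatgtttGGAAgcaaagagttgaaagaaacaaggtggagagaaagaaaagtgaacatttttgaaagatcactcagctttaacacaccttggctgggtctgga
GGAA was found 7 times in the LAMA3 window, 1 time in the LAMB3 window and 7 times in the COL17A1 window. It is present in 95.5% of the 35116 promoters of the RefSeq table, so its presence sets none of them apart. TGANTCA was found 2 times in the LAMA3 window, with first bases 125 and 69 bases before the RefSeq start. Both matches lie downstream of the LAMA3-201 start, within its first exon. TGANTCA was not in the other windows shown, and 7.7% of all promoters hold it. The CIC motifs TGAATGAA (1.7% of all promoters) and TGAATGGA (1.0%) were in none of the 3 windows. Among the other promoters of members, TGAATGAA was found 1 time in an ITGA6 window (chr2:172427086-172427385), and TGANTCA 1 time each in a further LAMB3 window and a DST window. CAGGTG, an E-box, was found 1 time each in the LAMA3 and LAMB3 windows shown, 2 times in that ITGA6 window and in 20.6% of all promoters. The table held 10 promoters for 5 of the 8 members, and a match describes letters in a window and not binding.

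In the ERF KD-labelled libraries, the mRNAs of laminin-332 chains and collagen XVII were 7.18 to 11.59 times lower than in WT, whereas those of the integrin alpha subunits and plakins were within 1.25-fold. LAMA3, LAMB3 and COL17A1 fell past the threshold (edgeR's quasi-likelihood test, Benjamini-Hochberg adjusted p under 0.05), which is 3 of 8 members beside 10.1% of all genes tested. None of the 8 rose past it. The median log2 fold change was -0.66 over the 8 and 0.006 over all genes. With 1 library left out, the log2 fold change ranged from -3.42 to -2.07 (LAMA3), -3.36 to -2.05 (LAMB3) and -4.52 to -2.93 (COL17A1).

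LAMA3, which encodes the alpha 3 chain that carries the integrin-binding end of laminin-332, was at 162 and 410 CPM in WT and at 33.5 and 43.3 CPM in the ERF KD-labelled libraries. The groups did not overlap. With the replicate letter as a block the log2 fold change was -2.71 (SE 0.289, adjusted p = 0.000408). Without the block it was -2.90 (SE 0.713, adjusted p = 0.0388), 7.45-fold lower. The call was lost without WT replicate B (-2.07, adjusted p = 0.171) and without replicate A (-2.72, 0.160) or replicate B (-3.09, 0.129) labelled ERF KD.

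LAMB3, the beta 3 chain, was at 114 and 281 CPM in WT and at 20.1 and 34.9 CPM in the ERF KD-labelled libraries, again without overlap. With the replicate letter as a block the log2 fold change was -2.76 (SE 0.169, adjusted p = 2.6e-05). Without the block LAMB3 fell by 2.84 on the log2 scale (SE 0.609, adjusted p = 0.0229), 7.18-fold. The call was lost without WT replicate B (-2.05, adjusted p = 0.104) and without replicate A (-2.50, 0.113) or replicate B (-3.29, 0.0623) labelled ERF KD.

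COL17A1, a transmembrane collagen of hemidesmosomes, had the largest change of the 8 in this comparison. Its level was 74.3 and 151 CPM in WT and 4.90 and 14.6 CPM in the ERF KD-labelled libraries. With the replicate letter as a block the log2 fold change was -3.60 (SE 0.266, adjusted p = 6.37e-05). Without the block it was -3.54 (SE 0.647, adjusted p = 0.0119), 11.59-fold lower. Without replicate A labelled ERF KD it was -2.95 (adjusted p = 0.0503), without WT replicate B -2.93 (0.0479) and without replicate B labelled ERF KD -4.52, still called.

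ITGB4, the beta 4 subunit found only in the hemidesmosome integrin, was at 275 and 279 CPM in WT and at 198 and 80.4 CPM in the ERF KD-labelled libraries, which lay below WT but far from each other. Its log2 fold change of -0.99 (SE 0.342) missed the threshold (adjusted p = 0.113). With the replicate letter as a block it passed (log2 fold change -1.06, adjusted p = 0.0405), and without replicate A labelled ERF KD it also passed (0.00178). With the block 4 of 8 members were called, beside 18.2% of all genes. ITGB4 was also the fourth member called in DESeq2 (beside 2063 of 14653 genes) and in edgeR without the low-count filter (beside 2577 of 22195).

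Its partner ITGA6 had a smaller fitted difference. ITGA6 was at 198 and 277 CPM in WT and 153 and 226 CPM in the ERF KD-labelled libraries. These overlap as unpaired groups (log2 fold change -0.33, SE 0.329, adjusted p = 0.597). ITGA6 was below WT in each replicate letter, and with the block it also missed the threshold (-0.34, SE 0.110, adjusted p = 0.0704). ITGA3 was at 555 and 577 CPM against 645 and 740 CPM, higher in both without passing the threshold (log2 fold change 0.29, SE 0.138, adjusted p = 0.240). The cytolinkers DST (0.09, SE 0.196, adjusted p = 0.827) and PLEC (-0.19, SE 0.165, adjusted p = 0.537) had small fitted differences as well, and the sign of that of DST depended on the scaling.

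**Figure D2:**
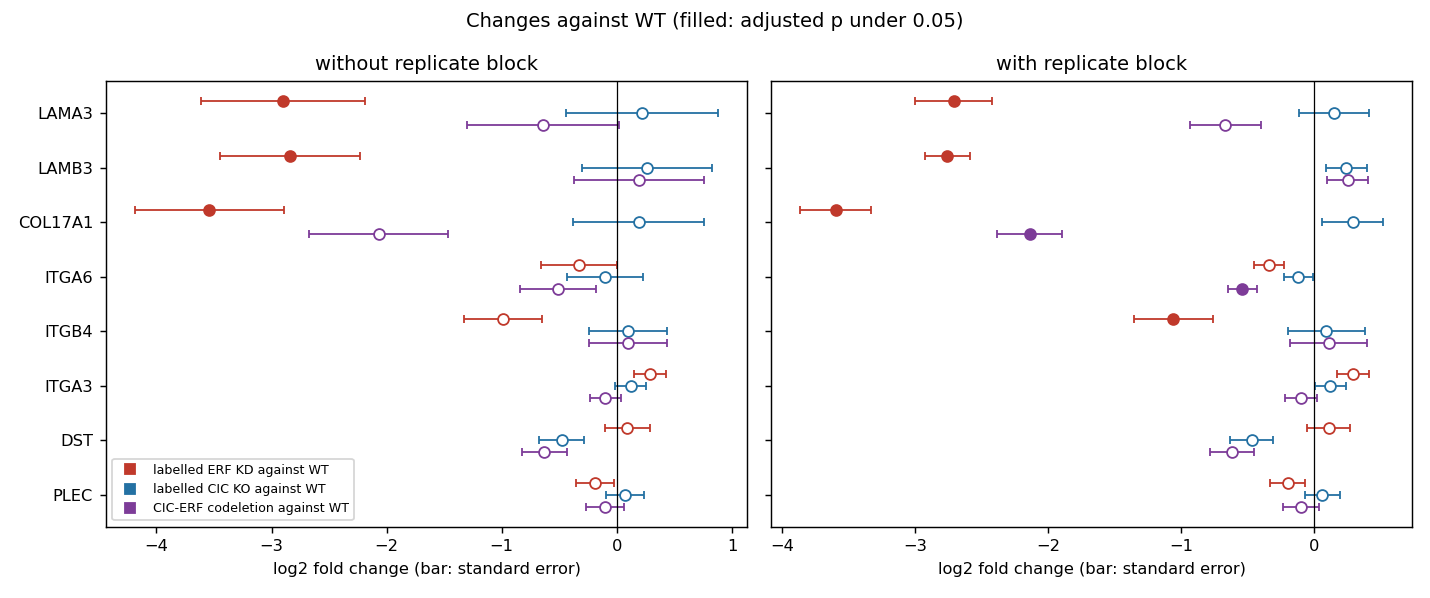
Log2 fold change against WT of the 8 genes, with standard errors, without and with the replicate letter as a block, where filled points have an adjusted p under 0.05. LAMA3, LAMB3 and COL17A1 are filled for the ERF KD-labelled libraries in both panels, and ITGB4 (labelled ERF KD) and COL17A1 and ITGA6 (codeletion) only with the block.

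No member was called in the CIC KO-labelled libraries, in which ERF mRNA was low. None of 8 passed in edgeR and none in DESeq2, 1 of 8 (DST) had an unadjusted p under 0.05, and 0% of all genes were called (587 genes had an unadjusted p under 0.05 and DESeq2 called 26). With the block the count stayed at 0 beside 0.00682% of all genes. LAMA3 was at 154 and 514 CPM, LAMB3 at 129 and 344 CPM and COL17A1 at 108 and 149 CPM. For each of these genes the libraries overlapped WT, with log2 fold changes of 0.22 (SE 0.659), 0.26 (SE 0.563) and 0.19 (SE 0.570). The signs of these 3 turned when single libraries were left out. DST was lower, at 207 and 165 CPM against 295 and 221 CPM in WT, without overlap (log2 fold change -0.48, SE 0.196, adjusted p = 1). For the other 4 the fitted difference was between -0.10 (ITGA6) and 0.12 (ITGA3) on the log2 scale.

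In the CIC-ERF codeletion, the fitted level of LAMB3 was close to that of WT, that of LAMA3 was 1.56-fold lower and collagen XVII was below both WT libraries. COL17A1 was at 14.0 and 40.0 CPM, below both WT libraries, which gave a log2 difference of -2.07 (SE 0.601, adjusted p = 0.214), and it passed with the replicate block (-2.14, SE 0.244, adjusted p = 0.0139). LAMB3 was at 154 and 296 CPM (0.19, SE 0.563) and LAMA3 at 94.7 and 273 CPM (-0.64, SE 0.663). Both genes overlapped WT as unpaired groups, while LAMA3 was below WT in each replicate letter. The signs of both fitted differences turned when single libraries were left out.

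ITGA6, at 124 and 210 CPM, overlapped WT as unpaired groups (log2 fold change -0.51, SE 0.330, adjusted p = 0.535), and with the block it passed (-0.54, SE 0.111, adjusted p = 0.0461). DST was at 183 and 152 CPM, below both WT libraries (-0.63, SE 0.197, adjusted p = 0.241, and 0.0921 with the block). ITGB4 (0.10, SE 0.338), ITGA3 (-0.10, SE 0.137) and PLEC (-0.10, SE 0.164) had fitted differences near 0. None of 8 members was called in DESeq2 or in edgeR with the low-count filter and no block, 2 had an unadjusted p under 0.05, and 0.0682% of all genes were called. Without that filter edgeR called 3, COL17A1 (adjusted p = 1.12e-17), DST (0.0222) and LAMA3 (0.0497), beside 768 of 22195 genes. The value of COL17A1 there is far below its 0.214 with the filter, and the reason was not tested. With the block the count was 2 of 8 beside 2.49% of all genes.

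The codeletion was next compared with each single-loss group. These comparisons share libraries with those above and are not independent of them. Against the ERF KD-labelled libraries, LAMB3 was higher in the codeletion by 3.03 on the log2 scale (SE 0.614, adjusted p = 0.0165), an 8.17-fold difference without overlap, and it was the 1 of 8 members called beside 11.7% of all genes. That call was lost without replicate A labelled ERF KD (adjusted p = 0.0870) and without codeletion replicate B (0.0822).

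LAMA3 (2.26, SE 0.697, adjusted p = 0.0749), ITGB4 (1.09, SE 0.342, 0.0781) and COL17A1 (1.47, SE 0.618, 0.175) were fitted higher in the codeletion than in the ERF KD-labelled libraries. DST (-0.71, SE 0.197, 0.0529) and ITGA3 (-0.39, SE 0.138, 0.107) were fitted lower. With the replicate block these 5 passed as well, at adjusted p = 0.00161 (LAMA3), 0.0257 (ITGB4), 0.00534 (COL17A1), 0.0152 (DST) and 0.0485 (ITGA3), so that 6 of 8 were called beside 20.6% of all genes. Without the block, LAMA3 passed when either replicate labelled CIC KO was left out (0.0441 without A and 0.0443 without B), and ITGB4 when replicate A labelled ERF KD was (0.00132). ITGA6 (-0.19, SE 0.329) and PLEC (0.08, SE 0.164) were called in neither fit.

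Against the CIC KO-labelled libraries, 0 of 8 members were called in edgeR and 0 in DESeq2, beside 0% of all genes (1216 genes and 1 member had an unadjusted p under 0.05). COL17A1, at 14.0 and 40.0 CPM against 108 and 149 CPM, was lower without overlap (log2 fold change -2.25, SE 0.604, adjusted p = 0.405). It was called with the block (-2.43, adjusted p = 0.0209), the 1 of 8 beside 0.334% of all genes. The remaining fitted differences ran from -0.86 (LAMA3, SE 0.665) to 0.00 (ITGB4, SE 0.338). That of LAMA3 turned to 0.26 without replicate B labelled CIC KO.

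When the single-loss groups were compared with each other, COL17A1 was lower in the ERF KD-labelled libraries by 13.19-fold (log2 fold change -3.72, SE 0.651, adjusted p = 0.00949), LAMA3 by 8.70-fold (-3.12, SE 0.719, 0.0313) and LAMB3 by 8.60-fold (-3.10, SE 0.615, 0.0169). These are 3 of 8 members beside 9.4% of all genes. The LAMA3 call was lost without either library labelled ERF KD or without replicate B labelled CIC KO (adjusted p from 0.111 to 0.148). For LAMB3 it was lost without replicate A labelled ERF KD (0.0952) or replicate B labelled CIC KO (0.0655). With the block ITGB4 (-1.15, adjusted p = 0.0319) and DST (0.58, adjusted p = 0.0432) were called too, 5 of 8 beside 16.5% of all genes. ITGB4 also passed without replicate A labelled ERF KD (0.00147). ITGA6 (-0.23, SE 0.329), ITGA3 (0.17, SE 0.137) and PLEC (-0.26, SE 0.165) were not called in either fit.

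The interaction term asks whether the codeletion departs from the sum of the log2 differences of the single-loss groups. No member was called in DESeq2 or in edgeR with the low-count filter and no block, 2 of 8 had an unadjusted p under 0.05, and 4.15% of all genes were called. Without that filter edgeR called LAMB3 (adjusted p = 5.33e-18), LAMA3, COL17A1 and ITGB4, 4 of 8, beside 1645 of 22195 genes. With the filter LAMB3 had a term of 2.77 (SE 0.817, adjusted p = 0.119, far above that without it) and LAMA3 of 2.04 (SE 0.947, adjusted p = 0.322). With the replicate block both passed, LAMB3 at 2.77 (SE 0.226, adjusted p = 0.000257) and LAMA3 at 1.89 (SE 0.384, adjusted p = 0.0178), 2 of 8 beside 9.55% of all genes. The terms of ITGB4 (0.99, SE 0.479, adjusted p = 0.343, and 0.0068 without replicate A labelled ERF KD) and COL17A1 (1.28, SE 0.838) were positive, that of ITGA3 was -0.51 (SE 0.194), and those of DST, ITGA6 and PLEC lay between -0.24 and 0.01.

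Replicate B was higher than replicate A in all 4 groups for LAMA3 (1.29 to 3.35-fold), LAMB3 (1.73 to 2.67-fold), COL17A1 (1.38 to 2.97-fold) and ITGA6 (1.40 to 1.69-fold). DST was lower in replicate B in 3 groups and higher in the ERF KD-labelled libraries (1.20-fold). ITGB4, ITGA3 and PLEC were each higher in B in 2 groups. The replicate block fits this common shift, and what the letters stand for is not given in the sources used here.

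The transcripts of LAMA3 differed in how they moved. LAMA3 has a long form that starts 183.4 kb upstream and a short epithelial form that makes the alpha 3A chain of laminin-332. The short form, LAMA3-201 (GRCh38, chromosome 18, from 23872840), was at 35.30 and 84.26 TPM in WT, 1.20 and 4.54 in the ERF KD-labelled libraries, 28.66 and 99.66 in the CIC KO-labelled ones, and 17.86 and 47.72 in the codeletion. The long form, LAMA3-202 (from 23689443), was at 3.37 and 1.74 TPM in WT, 3.64 and 1.94 in the ERF KD-labelled libraries, 3.03 and 1.83 in the CIC KO-labelled ones, and 2.11 and 1.12 in the codeletion. The short form was below WT in both ERF KD-labelled libraries, and the long form overlapped WT.

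The fitted log2 fold change in the ERF KD-labelled libraries was -4.33 for LAMA3-201 (SE 1.047, adjusted p = 0.188, and 0.0060 with the block) and 0.23 for LAMA3-202 (SE 0.449, adjusted p = 0.941). The transcript fit called 0.539% of 60293 transcripts in this comparison, and 0.695% with the block. LAMA3-201 held 79.8% and 82.6% of the estimated counts of LAMA3 in WT, and 13.6% and 42.3% in the ERF KD-labelled libraries. The share on LAMA3-202 was 14.7% and 3.3% in WT and 80.1% and 35.0% in the ERF KD-labelled libraries, and by TPM, which corrects for its greater length, 7.2% and 1.6%, and 62.2% and 17.7%. LAMA3-210, a processed transcript inside the gene, took the share between 0.6% and 22.4%. The promoter window printed for LAMA3 contains the start of the short form.

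**Figure D3:**
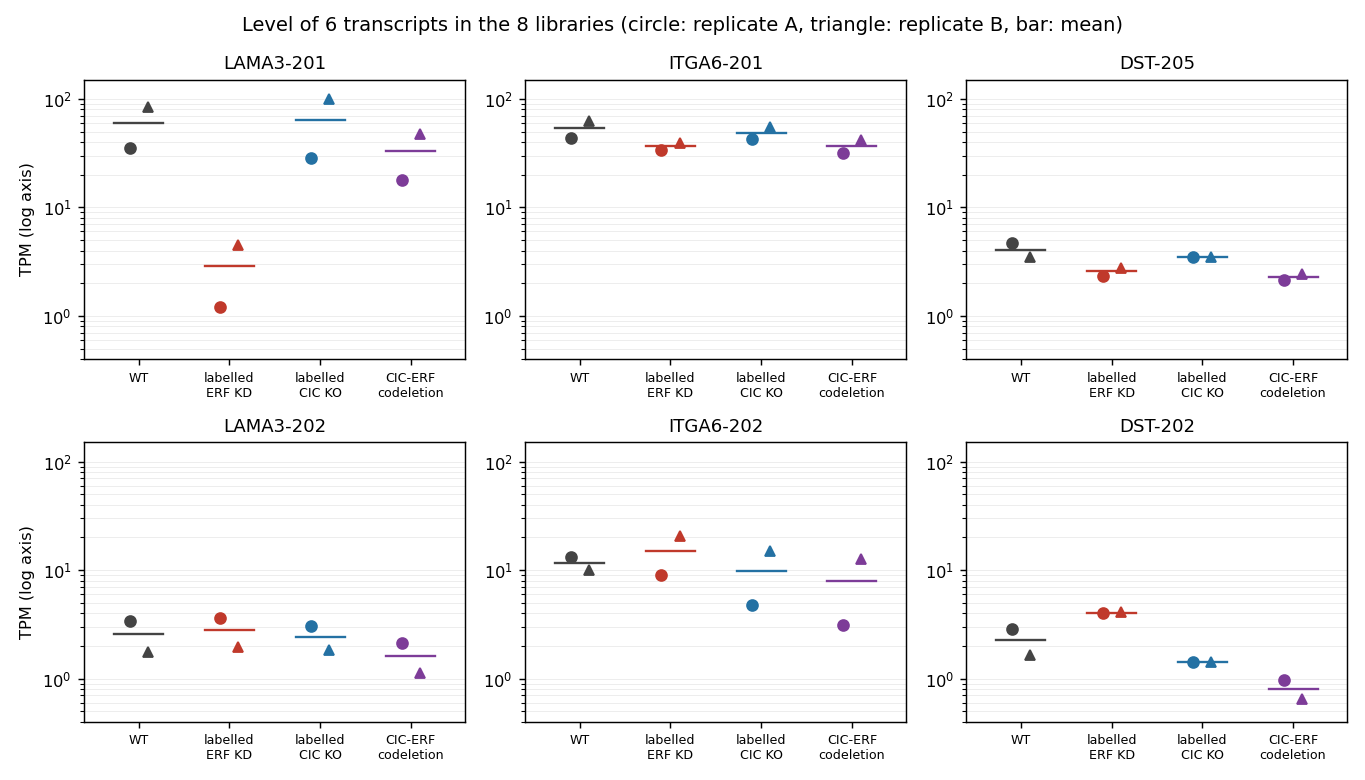
TPM (log axis) of LAMA3-201, LAMA3-202, ITGA6-201, ITGA6-202, DST-205 and DST-202 in each library, with a circle for replicate A, a triangle for replicate B and a bar for the mean. LAMA3-201 drops to 1.20 and 4.54 TPM in the ERF KD-labelled libraries, where LAMA3-202 is at 3.64 and 1.94 TPM.

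LAMB3 and COL17A1 rested mainly on 1 transcript each, but LAMB3 less so in the ERF KD-labelled libraries. LAMB3-201 held 97.4% and 95.8% of the gene's estimated counts in WT and 67.0% and 87.2% in the ERF KD-labelled libraries. By TPM its share was 90.6% and 89.8%, and 48.1% and 74.3%. LAMB3-201 was at 40.91 and 89.62 TPM in WT and 4.76 and 10.18 TPM in the ERF KD-labelled libraries (log2 fold change -3.08, SE 0.718, adjusted p = 0.173, and 0.00799 with the block). The minor LAMB3-203, which starts further downstream, was between 0.50 and 2.06 TPM in all libraries. Its share of counts was 1.3% and 2.3% in WT and 25.0% and 9.1% in the ERF KD-labelled libraries. Its fitted log2 fold change there was 0.08 (SE 0.751, adjusted p = 0.992). COL17A1-201 was at 18.38 and 34.78 TPM in WT and 1.22 and 3.41 TPM in the ERF KD-labelled libraries (-3.46, SE 0.712, adjusted p = 0.126, and 0.017 with the block).

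ITGA6 makes an alpha 6A or an alpha 6B tail, according to whether a 130-base exon at chromosome 2, 172501772 to 172501901 (GRCh38), is kept. ITGA6-201, which has this exon, held 76.9% and 86.0% of the gene's estimated counts in WT, 78.9% and 66.4% in the ERF KD-labelled libraries, 90.0% and 79.5% in the CIC KO-labelled ones, and 90.6% and 77.1% in the codeletion. ITGA6-202, which lacks it, held most of the rest, between 8.4% and 32.4% in the 8 libraries. For ITGA6-201 each altered group overlapped WT, while the share in both ERF KD-labelled libraries was below that in both CIC KO-labelled ones. The transcript fit called neither form in the ERF KD-labelled libraries against WT (ITGA6-201 -0.48, SE 0.299, adjusted p = 0.652, and ITGA6-202 0.46, SE 0.816, adjusted p = 0.931).

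DST gives rise to an epithelial linker and to longer forms of other tissues. DST-205, which has 24 exons and ends early, as the epithelial form does, was at 4.65 and 3.49 TPM in WT, 2.35 and 2.79 in the ERF KD-labelled libraries, 3.47 and 3.45 in the CIC KO-labelled ones, and 2.12 and 2.41 in the codeletion. Both ERF KD-labelled libraries and both of the codeletion lay below WT, with log2 fold changes of -0.58 (SE 0.215, adjusted p = 0.414) and -0.75 (SE 0.216, adjusted p = 0.760). DST-202, a long form, was at 2.85 and 1.65 TPM in WT and 4.02 and 4.07 TPM in the ERF KD-labelled libraries, above WT (0.94, SE 0.261, adjusted p = 0.255). It was below WT in the other groups, at 1.43 and 1.42 TPM in the CIC KO-labelled libraries (-0.54, SE 0.261, adjusted p = 1) and 0.96 and 0.65 TPM in the codeletion (-1.39, SE 0.266, adjusted p = 0.520). Its length in the files, 23715 bases, differs from the 17756 bases of GENCODE release 29. DST-201 held the largest share of the gene by counts, 48.4% and 47.8% in WT and 41.8% and 39.8% in the ERF KD-labelled libraries, and by TPM 21.0% and 20.9%, and 18.7% and 19.6%.

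ITGB4-203 was the main transcript of ITGB4, with 53.4% to 68.7% of its counts, and ITGA3-202 that of ITGA3, with 85.6% to 90.5%. PLEC was spread over forms with different first exons, of which PLEC-202 held 38.2% to 51.8% of its counts. The transcript fit called none of these against WT in the ERF KD-labelled libraries (ITGB4-203 -1.12, SE 0.359, adjusted p = 0.332, ITGA3-202 0.33, SE 0.126, 0.421, and PLEC-202 -0.31, SE 0.253, 0.758). Minor forms of ITGB4 differed in fitted direction there and were not called. They were ITGB4-207 (-2.60, SE 0.498), ITGB4-202 (-2.13, SE 0.574) and ITGB4-206 (0.18, SE 0.549).

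Genes of the same pathway were counted in 7 lists, of whose 56 tested genes 5 were higher and 9 lower in the ERF KD-labelled libraries than in WT, beside 10.1% of all genes called (with the block 7 and 18, beside 18.2%). Of 4 partners of laminin-332 and the hemidesmosome, 2 were lower and none higher in the ERF KD-labelled libraries, and 2 were lower with the block. The 2 that were lower are keratins, while COL7A1 (0.04, SE 0.297) and CD151 (0.05, SE 0.141) were near 0. The median log2 fold change of -1.71 lies between these pairs and is the value of no gene. KRT5, a basal keratin to which hemidesmosomes attach, was at 139 and 233 CPM in WT and 15.0 and 19.2 CPM (-3.45, SE 0.590, adjusted p = 0.00857). KRT14, its partner, was called as well (adjusted p = 0.00913), but with 18 and 27 estimated counts in WT and 1 in each library labelled ERF KD it is given without a fold.

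Of 9 other laminin chains 7 were tested and none was called, with a median of 0.03. LAMC1 (0.24, SE 0.176) and LAMB1 (-0.14, SE 0.175), the chains of highest mean CPM, had small differences. LAMA5, the alpha 5 chain, was at 530 and 244 CPM in WT and 127 and 39.4 CPM in the ERF KD-labelled libraries, without overlap (-2.22, SE 0.718, adjusted p = 0.0954), and it was called with the block (-2.34, adjusted p = 6.76e-05). Of 12 other basement membrane genes, AGRN (agrin) was lower (-1.19, SE 0.175, adjusted p = 0.00445) and NID1 (nidogen) higher (0.75, SE 0.182, adjusted p = 0.0370), and with the block 5 were lower and 1 higher. Of 13 other receptors, ITGB6 fell from 36.1 and 56.3 CPM in WT to 2.11 and 4.22 CPM (-3.87, SE 0.457, adjusted p = 0.00157) and ITGA1, of a collagen receptor, rose (0.78, SE 0.151, adjusted p = 0.0148), and with the block 2 were higher and 2 lower.

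Of 5 plakins other than DST and PLEC, 3 were lower in the ERF KD-labelled libraries: EPPK1 (-3.29, SE 0.225, adjusted p = 0.000116), the desmosomal linker DSP (-2.12, SE 0.152, 0.000139) and EVPL (-0.73, SE 0.113, 0.00566). Of 4 enzymes that process laminin, TLL1 was lower (adjusted p = 0.0299), at 1 and 13 estimated counts against 147 and 132 in WT, and with the block 2 were lower. TLL1 was also low in the other groups, at 17 and 15 estimated counts in the CIC KO-labelled libraries (adjusted p = 1) and 1 and 11 in the codeletion (0.126, and 0.0360 with the block). Of 11 focal adhesion linkers, TNS4 was lower (-1.86, SE 0.255, adjusted p = 0.00327), while FERMT2 (1.07, SE 0.115, 0.000983), PARVA (0.75, SE 0.148, 0.0164) and TLN1 (0.53, SE 0.131, 0.0386) were higher, and with the block 3 were lower and 4 higher. Of the 56 genes, edgeR without the block called 0 in the codeletion against WT, beside 0.0682% of all genes (12 had an unadjusted p under 0.05, DESeq2 called 5, and with the block 7 were lower). It called 0 in the CIC KO-labelled libraries, beside 0% (7 had an unadjusted p under 0.05, DESeq2 called 0 and the block 0).

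**Figure D4:**
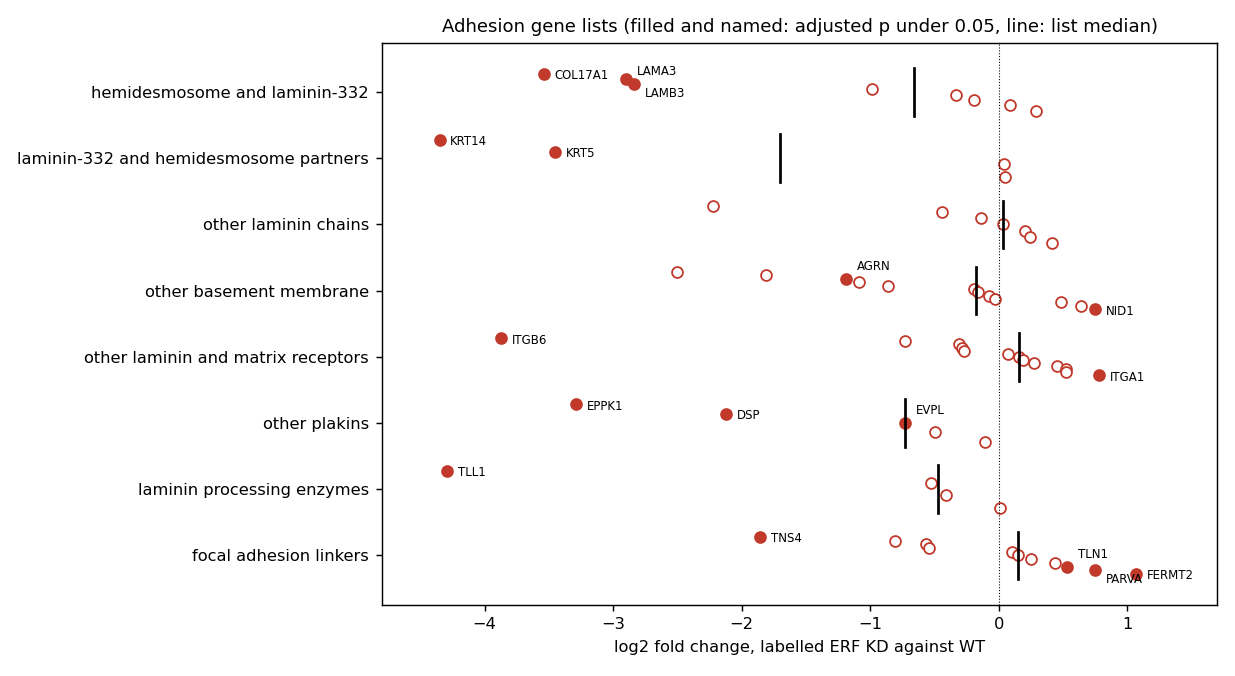
Log2 fold change in the ERF KD-labelled libraries against WT of the 8 genes and of 7 adhesion lists, 1 point a gene, filled and named where the adjusted p is under 0.05, with a line at each list's median. The medians are -0.66 for the 8 genes, -1.71 for the partners (KRT5 and KRT14 lower, COL7A1 and CD151 near 0) and 0.03 for the other laminin chains.

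Between the codeletion and the ERF KD-labelled libraries, 7 of the 56 list genes were higher in the codeletion and 9 lower, beside 11.7% of all genes called. Higher were the partner KRT5 (3.34, SE 0.588, adjusted p = 0.00898), the receptor ITGB6 (2.81, SE 0.447, 0.00583), the plakins EPPK1 (3.07, SE 0.224, 0.000136), DSP (1.98, SE 0.152, 0.000172) and EVPL (1.04, SE 0.113, 0.000917), TNS4 (2.04, SE 0.257, 0.002) and AGRN (0.82, SE 0.174, 0.0203). Lower were LAMA1 (-2.49, SE 0.388, 0.00535), which was at 0.677 and 1.07 CPM in the codeletion, NID1 (-0.96, SE 0.183, 0.0127), the collagen IV chains COL4A6 (-1.68, SE 0.328, 0.0142) and COL4A5 (-0.96, SE 0.221, 0.0269), the integrin subunits ITGA1 (-1.38, SE 0.154, 0.00105) and ITGA5 (-1.29, SE 0.245, 0.0127), and FERMT2, TLN1 and VCL (-0.76 to -0.53). With the block 13 were higher and 14 lower, beside 20.6%. Among those called only with it were LAMA5 (2.23, adjusted p = 7.25e-05) and LAMC1 (-0.54, 0.00941).

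The interaction term was called for 8 of the 56, beside 4.15% of all genes. It was positive for 5, namely EPPK1 (2.85, SE 0.294, adjusted p = 0.00177), DSP (2.12, SE 0.209, 0.0014), EVPL (1.03, SE 0.158, 0.0107), ITGB6 (3.71, SE 0.595, 0.0133) and TNS4 (1.98, SE 0.351, 0.0196). It was negative for 3, LAMA1 (-2.57, SE 0.517, 0.0314), ITGA1 (-0.99, SE 0.215, 0.0420) and FERMT2 (-0.90, SE 0.162, 0.0210). With the block the term was called for 11 positive and 9 negative, beside 9.55% of all genes. KRT5 (2.97, SE 0.772, adjusted p = 0.0821, and 2.89, 0.00143 with the block) and LAMA5 (2.41, SE 0.984, 0.254, and 2.64, 0.000384) were called only with it.

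Markers of the labelled cell type were, as a sum, lower in the ERF KD-labelled libraries, as LAMA3, LAMB3 and COL17A1 were. The summed level of 9 epithelial markers was 3804 and 4656 CPM in WT, 1648 and 2112 in the ERF KD-labelled libraries, 4064 and 5233 in the CIC KO-labelled ones, and 3938 and 5056 in the codeletion. It was higher in replicate B in every group, as LAMA3, LAMB3 and COL17A1 were. KRT8, KRT18 and KRT19 were the largest parts of the sum in every library. In the codeletion the sum overlapped WT. The single markers went in both directions there. CDH1 (258 and 273 CPM against 362 and 385 in WT) was below both WT libraries, as COL17A1 was. KRT14 was also below them, at 6 and 7 estimated counts against 18 and 27. EPCAM (354 and 381 CPM against 278 and 314) and KRT18 (1146 and 1365 CPM against 976 and 1112) were above both WT libraries. The remaining markers overlapped WT, and no marker was called in the codeletion against WT, without or with the block. In the ERF KD-labelled libraries 6 of the 8 tested were lower, beside 10.1% of all genes called in either direction, among them CDH1 (-4.41, SE 0.148, adjusted p = 1.27e-05) and EPCAM (-3.07, SE 0.194, adjusted p = 9.31e-05). TP63, a defining factor of basal cells, was between 0 and 0.577 CPM in all libraries.

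The 8 fibroblast markers summed to 49.4 and 31.4 CPM in WT, 115 and 42.5 in the ERF KD-labelled libraries, 46.3 and 23.2 in the CIC KO-labelled ones, and 65.4 and 42.8 in the codeletion, and LUM was at or below 3 counts in every library. Of the 5 tested, 1 was higher in the ERF KD-labelled libraries than in WT (2 with the block, PDGFRB being the other), with a median log2 fold change of 1.58. It was COL3A1, a fibrillar collagen, at 9 and 11 estimated counts in WT and 206 and 36 (adjusted p = 0.0432). The 3 endothelial markers summed to 12.6 and 7.95 CPM in WT, 15.8 and 4.22 in the ERF KD-labelled libraries, 36.5 and 9.14 in the CIC KO-labelled ones, and 67.0 and 16.3 in the codeletion, with none called against WT in any group without the block and CDH5 higher in the codeletion with it. Leukocyte markers summed to between 15.4 and 54.3 CPM. In bulk RNA, fewer cells that express a gene and less of its RNA per cell cannot be told apart, and the part of these markers in the results was not tested.

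As a description over the 8 libraries, LAMA3 and LAMB3 had a Pearson correlation of log2 CPM of 0.95, LAMA3 and COL17A1 of 0.89, and ITGA6 and ITGB4, which form 1 receptor, of -0.12. The libraries share groups and replicate letters, so these are not independent points. Among 9841 protein-coding genes with a mean of at least 10 CPM, the pattern most like that of LAMB3 was KRT8 (r = 0.993), of LAMA3 SPNS2 (0.979), of COL17A1 FYB1 (0.991), of ITGB4 RBCK1 (0.993), of ITGA6 CCNE2 (0.966), of ITGA3 ACSL4 (0.972), of DST ZNF286A (0.988) and of PLEC OTUD3 (0.951). No member was the nearest gene of another.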

How the data were processed

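RNA-seq had been performed on 8 PNT2 libraries, 2 in each of 4 groups taken from the sample labels. The deposited tables have kallisto's columns, with estimated counts, which are not normalized, and TPM, a length-corrected relative level computed by the authors' run, for every transcript. The processing notes name hg19, and the paper's methods name RSEM for gene-level values, so the aligner's version and annotation are not given in the sources used here. Each file lists 180253 transcripts, of which 153245 (85.0%) matched GENCODE release 29 by identifier, giving 33791 genes whose rounded sums were used. Totals ran between 19477473 and 25813157 estimated counts a library. In the shallowest, the floor of 3 counts equals 0.154 CPM, and floors cover counting error only. kallisto divides reads between transcripts, which makes shares within a gene uncertain. ITGA6 shares 351 exonic bases with genes on the opposite strand, and strandedness is not given.

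After filterByExpr (14653 genes), edgeR 4.0.16 in R 4.3.3 (TMM factors, glmQLFit, glmQLFTest) was run as a single fit of the 4 groups, with Benjamini-Hochberg adjustment over all genes and a threshold of 0.05. Transcripts (60293) were fitted the same way, which was added after the data were seen. Replicates differed beyond sampling noise (ratio of chi-square to its degrees of freedom 21.53 to 43.07). The differences between replicates B and A correlated across genes in all 6 pairs of groups (r = 0.215 to 0.441). The replicate letter was treated as a pairing only in the fit with the block, and the labels do not give its meaning. The main fit and the fits with 1 library left out had no block. Blocked values are given for the members called in the ERF KD-labelled libraries against WT, for ITGA6 there, and for members whose call they alter. For the lists they are given as counts with the genes named. The alternatives were DESeq2 1.42.0, no filter, the replicate block, length-scaled counts, limma 3.58.1 on log2(TPM + 1) and log2(TPM + 0.1), only the groups compared, and each library left out. Exact permutation of 2 against 2 libraries was not used, as its smallest 2-sided p is 0.333.

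The members and lists were chosen with earlier results of these data known. All 8 members were named in every comparison. Of each list, at most 4 genes with an adjusted p under 0.05 and the largest change were named, or with none the 2 of highest mean CPM, of which the text gives those for 3 comparisons. LAMA5, COL3A1, PDGFRB, CDH5, COL7A1, CD151 and the transcripts PLEC-211 and PLEC-215 were named after their values were seen. Also named was the gene most correlated with each member. The plan named transcripts with at least 5% of a gene's counts, 23 in all, of which the text gives a part. Promoter sequences were from RefSeq (GRCh38.p14). The plan left out those on chromosome 18, and the LAMA3 promoter was added after its values were seen. 1 gene of the planned lists is not reported here.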

Additional observations from a re-analysis of the deposited data

Results flagged for a closer look

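The interaction term of LAMB3 was 2.77 and that of LAMA3 was 1.89 on the log2 scale in the fit with the replicate block, where a test of the difference itself passed the threshold (adjusted p = 0.000257 and 0.0178, edgeR). In that fit the codeletion was above the sum of the differences in the single-loss groups for both laminin chains. Without the block the adjusted p was 0.119 for LAMB3 and 0.322 for LAMA3. Among genes of the adhesion lists the term passed without the block for ITGB6 (3.71), EPPK1 (2.85), DSP (2.12), TNS4 (1.98), EVPL (1.03), FERMT2 (-0.90), ITGA1 (-0.99) and LAMA1 (-2.57). Beyond these, KRT5 (2.89) and LAMA5 (2.64) are named from the fit with the block. Groups of 2 libraries are too small to look for single libraries that stand apart.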

How the results depend on the processing

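The 3 calls in the ERF KD-labelled libraries against WT were kept in direction in every alternative. In that comparison DESeq2, the fit without a filter and the fit with the block each called 4 members, ITGB4 being the fourth. With the replicate block, the number of members called became 2 in the codeletion against WT, 6 against the ERF KD-labelled libraries, 1 against the CIC KO-labelled ones, 5 between the single-loss groups and 2 in the interaction. Without a filter on low counts these numbers were 3, 5, 2, 5 and 4, beside 768, 2798, 426, 2367 and 1645 of 22195 genes. For COL17A1 and LAMB3 that fit gave far smaller adjusted p than the main fit, as given above. DESeq2 called 4 members in the codeletion against labelled ERF KD, beside 2312 of 14653 genes. Between the single-loss groups it called 5, beside 1897. The fit of only the groups compared called 2 in the codeletion against labelled ERF KD, beside 1219 of 13947 genes. With 1 library left out, the number of members called changed in labelled ERF KD against WT and in the codeletion against labelled ERF KD. It also changed between the single-loss groups and in the interaction. The number of all genes called changed in these fits as well, so this is not a trait of the members alone. A group left with 1 library is assumed to vary like the others. Over the alternatives that kept all libraries, the genes called ranged from 1032 to 2671 in labelled ERF KD against WT, from 0 to 123 in labelled CIC KO against WT, from 1 to 768 in the codeletion against WT, from 1113 to 3014 against labelled ERF KD, from 0 to 426 against labelled CIC KO, from 829 to 2424 between the single-loss groups and from 312 to 1645 in the interaction.

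No called value turned its sign. The following log2 values, none of them called, did, and the cause was not tested. They include LAMA3 in the codeletion, which was at -0.64 against WT and -0.86 against labelled CIC KO in the main fit. DST in labelled ERF KD against WT was -0.03 with length-scaled counts and -0.04 with limma at both pseudocounts, and -0.10 to 0.31 with 1 library left out. PLEC in labelled CIC KO against WT was -0.02 with limma at both pseudocounts, and in the codeletion against labelled ERF KD it was -0.14 with length-scaled counts and -0.17 with limma. ITGB4 in the codeletion against labelled CIC KO was -0.11, -0.13 and, in the fit of only the groups compared, -0.00. LAMB3 in the same comparison was 0.01 with the replicate block. In the interaction ITGA6 was 0.12 with length-scaled counts and 0.11 with limma, and PLEC was -0.17 and -0.16. With 1 library left out, the values against WT in labelled CIC KO ranged from -0.49 to 0.20 (ITGA6), -0.24 to 0.79 (COL17A1), -0.90 to 1.05 (LAMA3), -0.62 to 1.05 (LAMB3) and -0.09 to 0.22 (PLEC), and in the codeletion from -1.59 to 0.19 (LAMA3) and -0.36 to 0.98 (LAMB3). In the codeletion against labelled ERF KD they ranged from -0.61 to 0.15 (ITGA6) and -0.07 to 0.26 (PLEC), and against labelled CIC KO from -0.08 to 0.10 (ITGB4), -1.82 to 0.26 (LAMA3), -0.62 to 0.81 (LAMB3) and -0.30 to 0.02 (DST). They ranged from -0.53 to 0.16 for ITGA6 between the single-loss groups, and in the interaction from -0.51 to 0.30 (ITGA6) and -0.15 to 0.19 (PLEC). For transcripts in labelled ERF KD against WT they ranged from -0.29 to 0.67 (LAMA3-202), -0.29 to 0.11 (DST-201) and -0.27 to 0.93 (ITGA6-202). Mean transcript shares by TPM in place of counts moved LAMA3-201 in WT to 77.4% and in the ERF KD-labelled libraries to 30.9%, LAMA3-202 from 9.0% to 4.4% and from 57.5% to 40.0%, and DST-201 from 48.1% to 20.9% and from 40.8% to 19.1%.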
